A study of Mus musculus with 38 samples.

Results

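Apoe and 5 further genes of lipid uptake, cholesterol export and their control were followed through plasma cell differentiation. The 6 genes, Apoe, Cd36, Abca1, Abcg1, Nr1h2 and Nr1h3, were taken by symbol. All 6 were found among 20650 genes of the inhibitor files and among 20605 genes of the plasma cell files, and 5 of them, without Nr1h3, among 11441 genes of the files with GC-normalized values. The set was chosen by the measured RPKM of Apoe, low in plasmablasts beside pre-plasmablasts, so Apoe is given as a description, with no test, in every comparison that uses the plasmablasts or the control pre-plasmablasts of the first experiment.

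The Prdm1 gene encodes Blimp1, a repressor of transcription without which B cells do not become antibody-secreting cells. RNA was sequenced from 14 libraries of C57BL/6 mice in 7 groups of 2, and every group carried a GFP reporter in 1 Blimp1 allele. The series has 38 samples, and the other 24 are not analysed here. Cells of Blimp1(GFP/+) Cd23(Cre/+) mice were grown for 4 days with LPS, the bacterial lipopolysaccharide that activates B cells, and sorted by CD138 and GFP. CD138–GFP– cells are the activated B cells, CD138–GFP+ cells the pre-plasmablasts and CD138+GFP+ cells the plasmablasts. Blimp1-deficient pre-plasmablasts came from Blimp1(GFP/fl) Cd23(Cre/+) cells after the same stimulation, where Cre driven from the B cell gene Cd23 deletes the floxed allele. They were sorted as CD138–GFP+CD22hi, so genotype and gate cannot be told apart. In a separate experiment, Blimp1(GFP/+) cells without Cd23-Cre received GSK343, which blocks the histone-methylating enzyme EZH2, or the solvent DMSO during the 4 days of LPS, and pre-plasmablasts (CD138–GFP+) were sorted. Plasma cells (CD28+CD138+GFP+Lin-) were sorted ex vivo from Blimp1(GFP/+) mice.

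Apolipoprotein E is a secreted protein that coats lipoprotein particles and carries cholesterol and other lipids to cells that take them up through surface receptors. CD36 is a surface receptor for long-chain fatty acids and oxidized lipoproteins, while ABCA1 and ABCG1 are membrane pumps that pass cholesterol out of the cell to such particles. LXRβ (Nr1h2) and LXRα (Nr1h3) are nuclear receptors that bind oxysterols, pair with RXR and, in macrophages, switch on Abca1, Abcg1 and Apoe, which makes this set a textbook circuit of cholesterol export.

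Promoter sequences are shown for Apoe, whose level moved most between the cultured groups, and for Abca1, the member whose window holds the letters of an LXR response element. Each runs from 250 bases before to 50 bases after a start site, 5′ to 3′ along the gene (RefSeq, GRCm38.p6). The capitals in Apoe mark the letters GAGGAA or their reverse complement, the core that PU.1 and Spi-B bind. In Abca1 they mark a DR4 match, the direct repeat with 4 spacer bases that LXR and RXR bind, and GGGCGG, the GC box. The 2 windows are chr7:19699139-19699438 (minus strand, the first of 3 Apoe start sites in the table) and chr4:53159846-53160145 (minus strand).
Apoe: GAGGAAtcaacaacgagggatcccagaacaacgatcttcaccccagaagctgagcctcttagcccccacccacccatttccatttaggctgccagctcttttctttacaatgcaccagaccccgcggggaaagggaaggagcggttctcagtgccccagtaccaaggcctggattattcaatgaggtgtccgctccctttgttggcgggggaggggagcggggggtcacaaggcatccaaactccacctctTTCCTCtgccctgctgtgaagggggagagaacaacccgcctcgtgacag
Abca1: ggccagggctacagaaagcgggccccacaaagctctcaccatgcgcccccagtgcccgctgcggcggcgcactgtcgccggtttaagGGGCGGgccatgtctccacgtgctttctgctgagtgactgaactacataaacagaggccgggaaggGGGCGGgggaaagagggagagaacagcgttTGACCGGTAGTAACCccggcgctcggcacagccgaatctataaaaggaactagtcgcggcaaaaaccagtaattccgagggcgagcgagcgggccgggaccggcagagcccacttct
The Abca1 match TGACCGGTAGTAACC lies at bases -67 to -53 from the start and reads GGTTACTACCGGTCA on the other strand. The searched form was GGTNA, any 5 bases and a second GGTNA, on either strand, and it was found in 236 of 32851 promoter windows of the table, or 0.718%. Among the 5 members with a window, only Abca1 held it. GAGGAA, found in 28.3% of all windows, occurred at 2 places in the Apoe window shown. AGNGAAAG, the letters of a Blimp1 site and present in 8.63% of windows, was found in none of the 3 Apoe windows and once in the first Nr1h3 window, as CTTTCTCT on the printed strand. These are matches of letters and not measured binding, and the DR4 and GC box letters did not overlap.

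Levels are in RPKM, the reads on a gene divided by its length and by the library's total. Fold changes and their standard errors (SE) are on the log2(RPKM + 1) scale and come from limma, with p adjusted over all genes tested and a gene called at an adjusted p below 0.05. A gene entered the test when 2 libraries or more held it at 1 RPKM, which left 10473 genes of the first experiment and 9479 of the inhibitor experiment. Between 9744 and 10077 genes reached 1 RPKM in the 8 GC-normalized libraries, where read depth is unknown. Steps between low values put the inhibitor libraries at 0.832 to 1.008 times the depth of the first DMSO library. Markers fitted the labels: Sdc1, which encodes CD138, was at 32.7 and 30.5 RPKM in plasmablasts against 2.19 and 2.12 RPKM in pre-plasmablasts, and the B cell receptor gene Cd79a was above 448 RPKM in each of the 14 libraries. Prdm1 was at 199 and 171 RPKM in Blimp1-deficient cells, against 429 and 327 RPKM in control pre-plasmablasts and 7.45 and 10.7 RPKM in activated B cells. Prdm1 reads from outside the floxed part, and from the GFP allele, do not report the deletion.

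**Figure D1:**
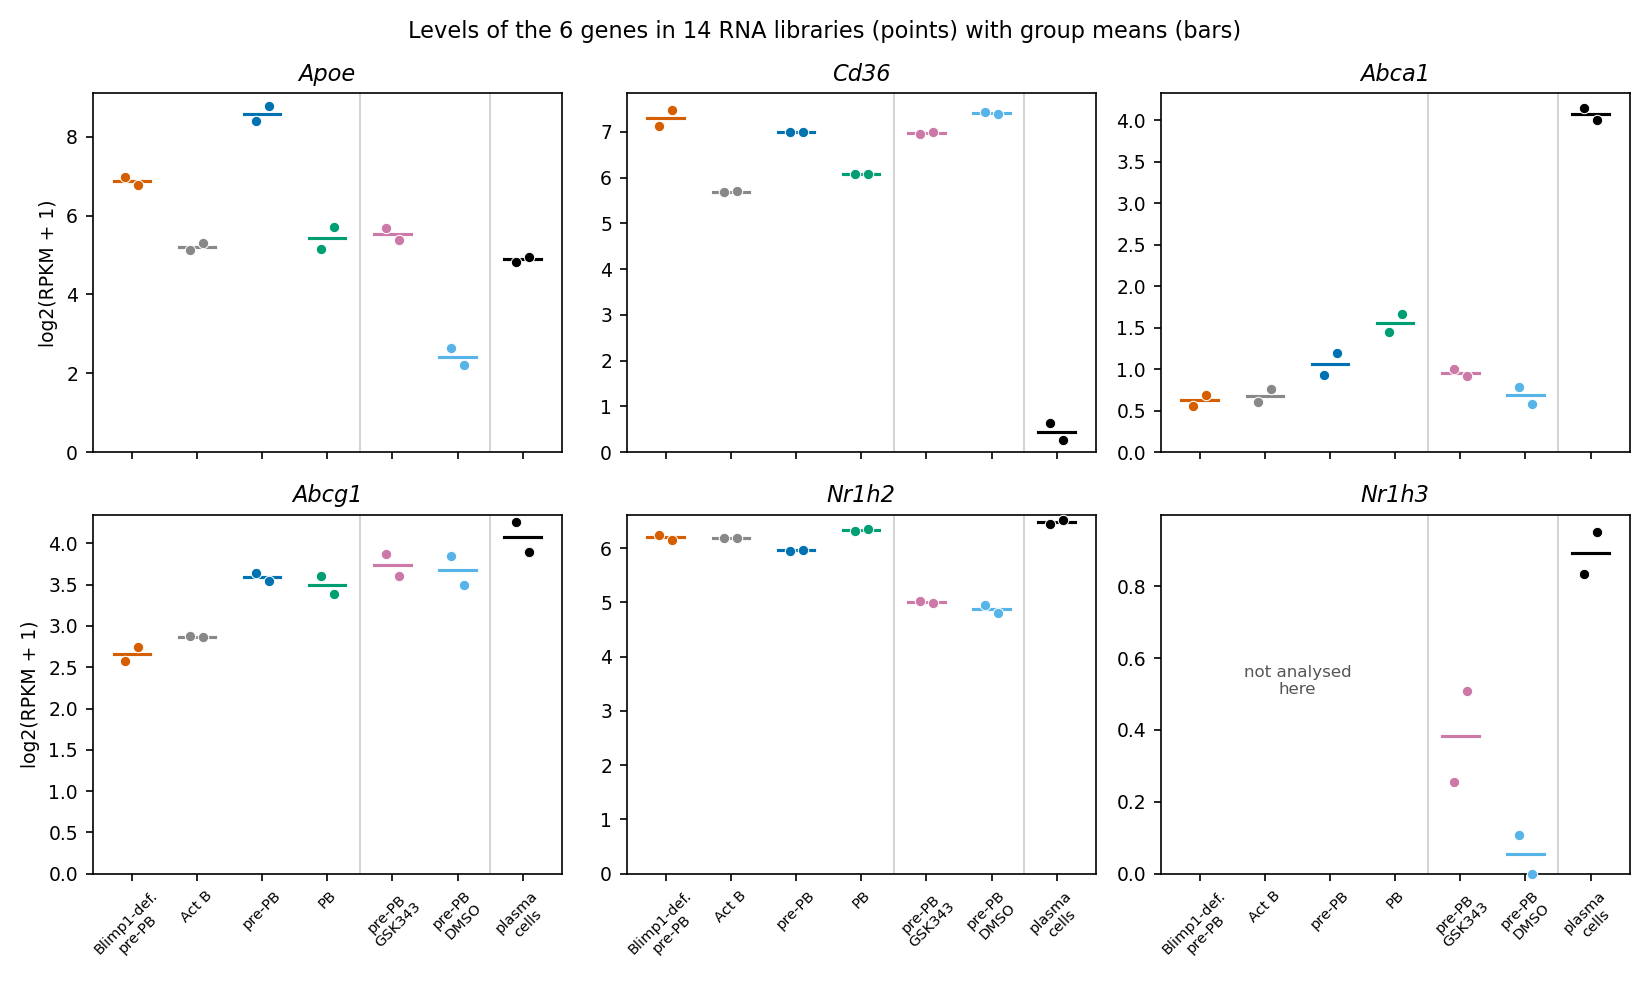
Level of each gene as log2(RPKM + 1) in 14 libraries; points are libraries, bars are means of 2, and grey lines separate the GC-normalized, inhibitor and plasma cell files. Apoe stood highest in pre-plasmablasts (338 and 435 RPKM) and lowest in DMSO-treated pre-plasmablasts (5.26 and 3.61 RPKM), while Cd36 was below 1 RPKM in plasma cells and at 50.2 RPKM or more in the other 12 libraries.

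Apoe was expressed in every group and had the widest range of the members among the cultured groups. Across the GC-normalized groups it reached 33.8 and 38.6 RPKM in activated B cells, 338 and 435 RPKM in pre-plasmablasts and 34.7 and 51.2 RPKM in plasmablasts. Blimp1-deficient pre-plasmablasts had 125 and 109 RPKM, between the activated B cells and the control pre-plasmablasts and without overlap with either. In the order of group means, plasmablasts (42.9 ± 11.6 RPKM, SD, n = 2) stood next to activated B cells (36.2 ± 3.36 RPKM, SD, n = 2), and those libraries overlapped. Within a library, Apoe stood at the 98.5th and 99.0th percentile of 11165 shared genes in pre-plasmablasts, at ranks 164 and 115 from the top. It stood at the 77.5th and 80.1st percentile in activated B cells and at the 79.6th and 86.2nd percentile in plasmablasts.

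Pre-plasmablasts had far more Apoe RNA than activated B cells, with a log2 difference of 3.37 and a 10.7-fold ratio of means, and the libraries did not overlap. Of all genes tested in this comparison, 48.2% were called, 20.2% higher and 28% lower in pre-plasmablasts. Libraries scaled by the median of ratios turned that split, with 2430 genes called higher and 2293 lower in place of 2117 and 2931. Of the other 4 members in the fit, 2 rose (Cd36 and Abcg1) and 1, Nr1h2, fell. In bulk RNA, fewer cells with a transcript and less of it per cell cannot be told apart.

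Plasmablasts, the CD138-bearing cells that follow, had less Apoe RNA than pre-plasmablasts by a log2 difference of -3.15, an 8.99-fold ratio of means, which is the difference that chose the gene. Leaving out either plasmablast library put that difference between -3.43 and -2.88. Against activated B cells, plasmablasts had a log2 difference in Apoe of 0.22 with overlapping libraries, and it was -0.055 without the second plasmablast library.

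Blimp1-deficient pre-plasmablasts had less Apoe RNA than control pre-plasmablasts, with a log2 difference of -1.71, given with no test. They had more than activated B cells (log2 fold change 1.66, SE 0.209, adjusted p = 0.00334). Neither of these groups chose the gene, but the SE and p rest on a spread shared by all 4 groups of the fit. The libraries that chose Apoe are among those groups. In deficient against control pre-plasmablasts 40.4% of genes were called, 24.4% higher and 16.1% lower in the deficient cells (1853 higher and 2049 lower with scaling), and against activated B cells 18%, 10.4% higher and 7.6% lower. With the library series as a block, 65.2% and 42.7% were called.

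GSK343 raised Apoe more than any other member. It was at 50.4 and 40.8 RPKM with GSK343, against 5.26 and 3.61 RPKM with DMSO, with a log2 fold change of 3.11 (SE 0.152, adjusted p = 6.51e-07) and a 10.3-fold ratio of means. The 2 groups lay far apart, and the Apoe percentile was 85.0 and 82.1 with GSK343 against 43.9 and 37.1 with DMSO. Of all genes tested, 18.6% were called in this comparison, 12.7% higher and 5.86% lower with GSK343. Of the 4 members tested, 1 (Apoe) rose and 1 (Cd36) fell. With no filter on low values, limma called no gene, with 3629 of 20650 genes at an unadjusted p below 0.05, and the adjusted p of Apoe was 0.0798; 3684 of those genes were at 0 in every library.

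The DMSO-treated pre-plasmablasts held much less Apoe than the pre-plasmablasts of the first experiment, although the gate and the days of LPS were the same. The means were 386 ± 68.5 RPKM in the first experiment's pre-plasmablasts and 4.44 ± 1.17 RPKM with DMSO (SD, n = 2 each), a ratio of 87.0. On the log2 scale the gap was 6.16, the highest positive gap of 11165 genes, and 1 gene had a larger gap in the other direction. Because the first experiment's pre-plasmablasts are among the libraries that chose Apoe, this rank is a description only. The median gap was 0.23, and the range from the 1st to the 99th percentile ran from -1.75 to 2.92. Cd36 had a gap of -0.42, Abca1 of 0.38, Abcg1 of -0.08 and Nr1h2 of 1.08. With GSK343, the mean of 45.6 RPKM was still below that of the first experiment's pre-plasmablasts by a factor of 8.47. These tables were normalized separately, and Cd23-Cre, solvent, experiment and GC normalization differ together, so the gap was not tested and its sources cannot be told apart.

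**Figure D2:**
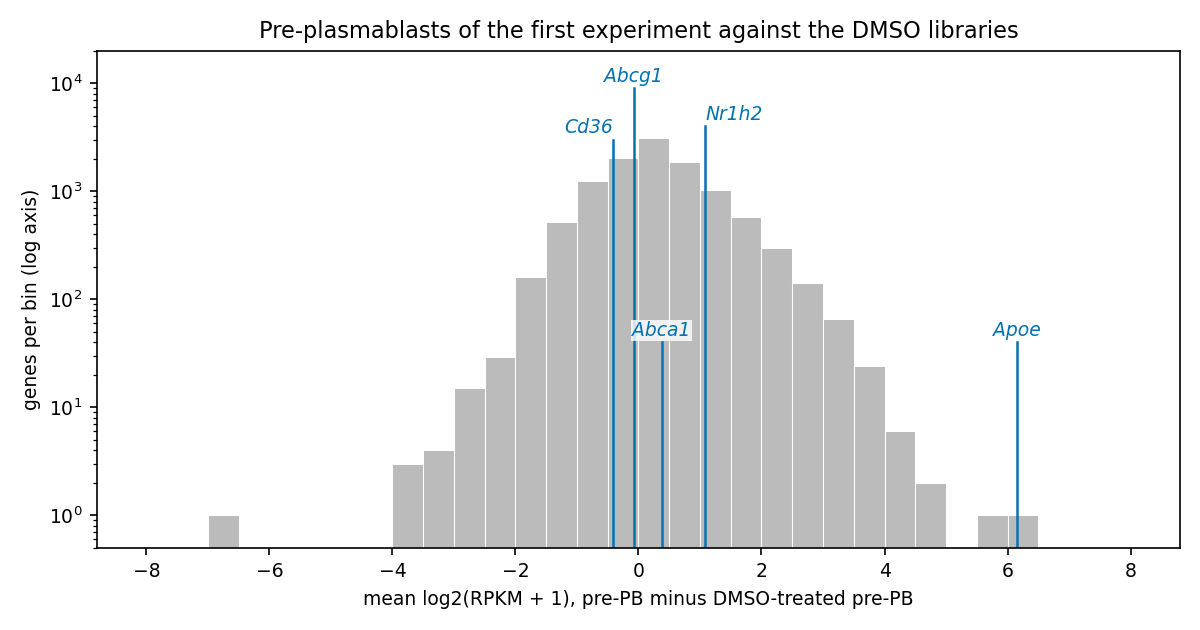
Distribution over 11165 genes of the difference in mean log2(RPKM + 1), pre-plasmablasts of the first experiment minus DMSO-treated pre-plasmablasts, in bins 0.5 wide with a log axis for the number of genes; blue lines mark 5 members. Apoe, at 6.16, is the gene farthest to the right, 1 gene on the left lies farther from 0, and the other 4 members lie between -0.42 and 1.08. The pre-plasmablasts of the first experiment are among the libraries that chose Apoe.

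Cd36, the fatty acid and scavenger receptor, followed another course. It was at 50.2 and 51.2 RPKM in activated B cells, 127 and 126 RPKM in pre-plasmablasts and 66.4 and 66.6 RPKM in plasmablasts. Blimp1-deficient pre-plasmablasts had 139 and 177 RPKM, the highest of the 4 groups and above both control libraries. Pre-plasmablasts had more Cd36 than activated B cells (log2 fold change 1.30, SE 0.121, adjusted p = 0.000241).

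In plasmablasts Cd36 stood between the other stages. It fell against pre-plasmablasts (-0.92, SE 0.121, adjusted p = 0.0167) and stayed above activated B cells (0.38, SE 0.121, adjusted p = 0.0335). Only 2.34% of genes were called between plasmablasts and pre-plasmablasts, 0.716% higher and 1.62% lower in plasmablasts, or 20.3% with the library series as a block. Of the 4 members tested there, Cd36 alone was called without that block. Its fall lost the call without any 1 library of those 2 groups (adjusted p 0.0939 to 0.142) and in a fit of those groups alone (0.0741). The rise over activated B cells lost it without any 1 library of activated B cells, plasmablasts or pre-plasmablasts (0.0525 to 0.119).

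Cd36 was not lower in Blimp1-deficient cells. The difference from control pre-plasmablasts was 0.31 (SE 0.121, adjusted p = 0.0874), and it passed the test with the library block (adjusted p = 0.0167) and without the first deficient library (0.48, adjusted p = 0.0185). Against activated B cells Cd36 rose by 1.61 (SE 0.121, adjusted p = 0.000622). GSK343 lowered it. The levels were 123 and 128 RPKM with GSK343, against 172 and 168 RPKM with DMSO, a log2 fold change of -0.44 (SE 0.075, adjusted p = 0.00233; adjusted p = 0.0798 with no filter). The groups did not overlap, so Apoe and Cd36 changed in opposite directions under the inhibitor.

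**Figure D3:**
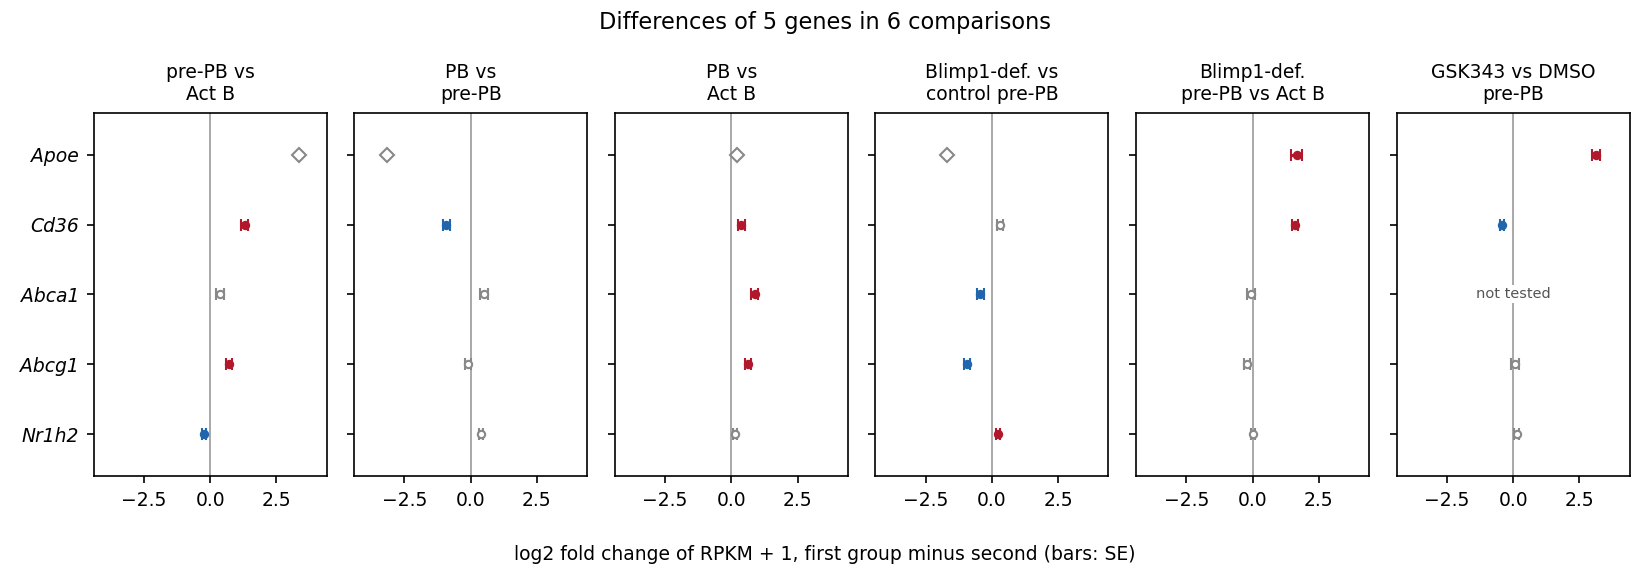
Log2 fold changes of 5 genes in 6 comparisons, first group minus second, with SE bars; red is called higher, blue called lower, open grey circles not called, and open diamonds are Apoe, with no test, in the comparisons whose libraries chose it. Apoe lies farthest from 0 in both the first comparison drawn (pre-plasmablasts, 3.37) and the GSK343 comparison (3.11).

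Abca1, the pump that loads cholesterol onto lipid-poor apolipoproteins, was low in all cultured groups and stood higher at each later stage. It was at 0.516 and 0.697 RPKM in activated B cells, 0.900 and 1.30 RPKM in pre-plasmablasts and 1.73 and 2.18 RPKM in plasmablasts, and no library of a stage overlapped the next. The rise passed the test between the ends of the series (plasmablasts against activated B cells, log2 fold change 0.88, SE 0.142, adjusted p = 0.0021). Each single step missed it, with 0.38 (SE 0.142, adjusted p = 0.065) for pre-plasmablasts over activated B cells and 0.50 (SE 0.142, adjusted p = 0.152) for plasmablasts over pre-plasmablasts. With the library block both steps were called, at an adjusted p of 0.0117 and 0.0151, and with median-of-ratios scaling the first was (0.43, adjusted p = 0.0427).

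Between plasmablasts and activated B cells 55.1% of genes were called, 21.3% higher and 33.9% lower in plasmablasts. Of the other 4 members in the fit beside Apoe, 3 rose (Cd36, Abca1 and Abcg1) and none fell. Blimp1-deficient pre-plasmablasts held 0.476 and 0.607 RPKM of Abca1, below the 0.900 and 1.30 RPKM of control pre-plasmablasts (log2 fold change -0.44, SE 0.142, adjusted p = 0.0472). That call was lost in 7 of the 8 fits that each left out 1 library, with an adjusted p of 0.0578 to 0.209. Against activated B cells the difference was -0.06 (SE 0.142, adjusted p = 0.851) with overlapping libraries. With GSK343 Abca1 was at 0.998 and 0.887 RPKM, against 0.723 and 0.501 RPKM with DMSO, both under the filter and not tested.

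Abcg1, which exports cholesterol to mature lipoprotein particles, rose at the first step and did not pass the test at the second. It was at 6.32 and 6.29 RPKM in activated B cells, 11.5 and 10.7 RPKM in pre-plasmablasts and 11.2 and 9.47 RPKM in plasmablasts. Pre-plasmablasts (log2 fold change 0.72, SE 0.119, adjusted p = 0.00286) and plasmablasts (0.63, SE 0.119, adjusted p = 0.00433) both stood above activated B cells. Between those stages the difference was -0.10 (SE 0.119, adjusted p = 0.812), with overlapping libraries and a sign that turned without the second plasmablast library (0.01).

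In Blimp1-deficient pre-plasmablasts Abcg1 was at 4.97 and 5.72 RPKM, below every library of control pre-plasmablasts and of activated B cells. It fell against control pre-plasmablasts (log2 fold change -0.93, SE 0.119, adjusted p = 0.00133), and its difference from activated B cells did not pass the test (-0.21, SE 0.119, adjusted p = 0.308). Of the 4 members tested beside Apoe in deficient against control pre-plasmablasts, 2 fell (Abca1 and Abcg1) and 1, Nr1h2, rose, where 16.1% of all genes were called lower and 24.4% higher. With GSK343 the Abcg1 libraries overlapped those of DMSO, at 13.7 and 11.2 RPKM against 13.4 and 10.3 RPKM with DMSO (0.07, SE 0.14, adjusted p = 0.783).

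Nr1h2, the gene of LXRβ, was well expressed and varied little. It was at 71.8 and 72.3 RPKM in activated B cells, 61.1 and 61.5 RPKM in pre-plasmablasts and 78.8 and 81.1 RPKM in plasmablasts, with no overlap between stages. Its level in pre-plasmablasts was lower than in activated B cells (log2 fold change -0.23, SE 0.077, adjusted p = 0.0459), where the median of all genes was -0.12. Blimp1-deficient pre-plasmablasts, at 74.7 and 70.2 RPKM, stood above control pre-plasmablasts (0.24, SE 0.077, adjusted p = 0.0481), where the median of all genes was 0.12. Both calls were lost when libraries were scaled by the median of ratios (-0.11, adjusted p = 0.283, and 0.11, adjusted p = 0.318) and without any 1 of the 8 libraries.

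Plasmablasts had 0.38 more Nr1h2 than pre-plasmablasts on the log2 scale (SE 0.077, adjusted p = 0.0672), which passed the test with the library block (adjusted p = 0.00351) and with scaling (adjusted p = 0.0397). Against activated B cells the difference was 0.15 (SE 0.077, adjusted p = 0.147), called with the block (adjusted p = 0.035) and with scaling (0.34, adjusted p = 0.0101). Deficient pre-plasmablasts and activated B cells differed in Nr1h2 by 0.01 (SE 0.077, adjusted p = 0.971). Of the 5 members tested in that comparison, 2 rose (Apoe and Cd36) and none fell, where 10.4% of all genes were called higher and 7.6% lower. With GSK343 Nr1h2 was at 31.6 and 30.7 RPKM, against 30.0 and 26.9 RPKM with DMSO (0.13, SE 0.092, adjusted p = 0.375).

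Nr1h3, the gene of LXRα, was at the edge of detection wherever it was read. It was at 0.194 and 0.423 RPKM with GSK343, against 0.0782 and 0 RPKM with DMSO. The smallest whole read numbers in the ratios of those values, to a tolerance of 0.05, were 5 and 9 with GSK343 and 2 and 0 with DMSO. Both groups were under the filter, so no test or fold is given. Plasma cells had 0.781 and 0.933 RPKM, the highest of the 3 groups and still below 1 RPKM.

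Ex vivo plasma cells had another profile of these genes than the cultured groups, given as levels because their files were normalized on their own. Cd36 was at 0.562 and 0.195 RPKM in plasma cells, against 66.4 and 66.6 RPKM in plasmablasts, and its percentile was 11.2 and 6.0 in plasma cells against 89.4 and 89.5 in plasmablasts. Abca1 was at 16.6 and 15.0 RPKM in plasma cells, against 1.73 and 2.18 RPKM in plasmablasts, with percentiles of 63.3 and 60.5 against 20.0 and 21.4. By means the exporter was 8.10 times as high in plasma cells, and for neither gene did the libraries overlap. The plasma cell libraries also held the myeloid marker Lyz2 (9.96 and 6.24 RPKM) and the erythroid marker Hbb-b1 (48.8 and 27.2 RPKM). The part of RNA from other cells in these levels was not tested.

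Apoe in plasma cells was at 27.4 and 29.9 RPKM, against 34.7 and 51.2 RPKM in plasmablasts, with percentiles of 75.3 and 77.3 against 79.6 and 86.2. Abcg1 was at 18.2 and 13.9 RPKM in plasma cells, against 11.2 and 9.47 RPKM in plasmablasts. Nr1h2 was at 86.1 and 91.2 RPKM in plasma cells, against 78.8 and 81.1 RPKM in plasmablasts. The gene names of the plasma cell files were moved back by up to 5 places, past 5 summary entries of a read counter. With names as deposited, the plasma cell means would be 0 RPKM for Apoe and Nr1h2, 3.85 RPKM for Cd36 and 0.102 RPKM for Nr1h3, with Abca1 and Abcg1 unmoved.

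**Figure D4:**
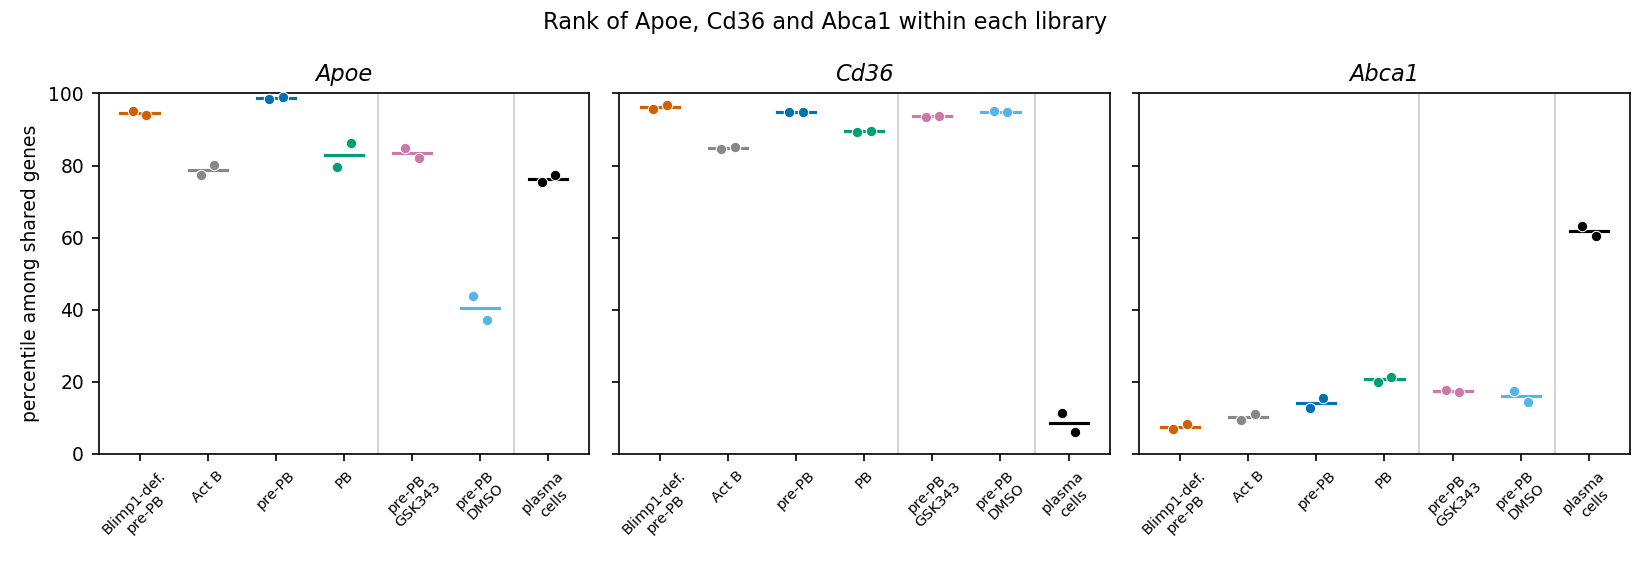
Percentile of Apoe, Cd36 and Abca1 among 11165 genes shared by all files, within each library; points are libraries and bars are means of 2. Apoe stood at the 98.5th and 99.0th percentile in pre-plasmablasts, Cd36 at the 11.2th and 6.0th in plasma cells, and Abca1 at the 63.3rd and 60.5th in plasma cells.

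Myeloid cells are a rich source of Apoe, so their markers were read beside it, as sums over a list of 23 names. In the GC-normalized files 8 of these are listed, and Csf1r, Lyz2, Cd14, C1qa, C1qb and C1qc are not among them. The 8 summed to 205 and 246 RPKM in Blimp1-deficient pre-plasmablasts, 85.3 and 92.6 RPKM in activated B cells, 46.2 and 53.8 RPKM in control pre-plasmablasts and 40.2 and 41.9 RPKM in plasmablasts. For these 8 names the deficient group had the highest sum and the second highest Apoe. The control pre-plasmablasts, highest in Apoe, had the second lowest sum. Such sums do not cover the macrophage genes that are not listed. Mpeg1, a pore-forming protein gene, made up most of the sum in deficient pre-plasmablasts, at 124 and 154 RPKM. It was also at 38.1 and 51.8 RPKM in activated B cells, against 3.09 and 5.48 RPKM in control pre-plasmablasts. The cells that Mpeg1 RNA came from were not tested, so this sum is not a measure of myeloid cells alone. Of 7 markers tested, 5 rose and none fell in deficient against control pre-plasmablasts, where 24.4% of all genes were called higher and 16.1% lower. In control pre-plasmablasts against activated B cells 2 rose (Cd68 and Fcer1g) and 4 fell, where 20.2% of all genes were called higher and 28% lower. Fcer1g, an Fc receptor subunit gene, was at 8.38 and 12.9 RPKM in pre-plasmablasts, against 2.66 and 2.88 RPKM in activated B cells.

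In the inhibitor files 22 of the 23 names are listed, and they summed to 35.1 and 34.1 RPKM with GSK343, against 23.7 and 24.3 RPKM with DMSO. The defining macrophage genes Csf1r, Lyz2, C1qa, C1qb and C1qc lay between 0 and 0.261 RPKM in all 4 libraries, and C1qc and Vsig4 were at 0 throughout. Fcer1g rose with GSK343 (13.7 and 14.8 RPKM, against 2.09 and 2.60 RPKM with DMSO), as did Cd14, and Cd68 fell (8.65 and 8.02 RPKM, against 13.3 and 12.6 RPKM with DMSO). In plasma cells the 22 listed names summed to 204 and 162 RPKM, with Cd68 at 58.8 and 55.8 RPKM, S100a9 at 46.1 and 14.9 RPKM and C1qa, C1qb and C1qc between 3.40 and 7.27 RPKM. The part of myeloid RNA in the values of Apoe and the other members was not tested.

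**Figure D5:**
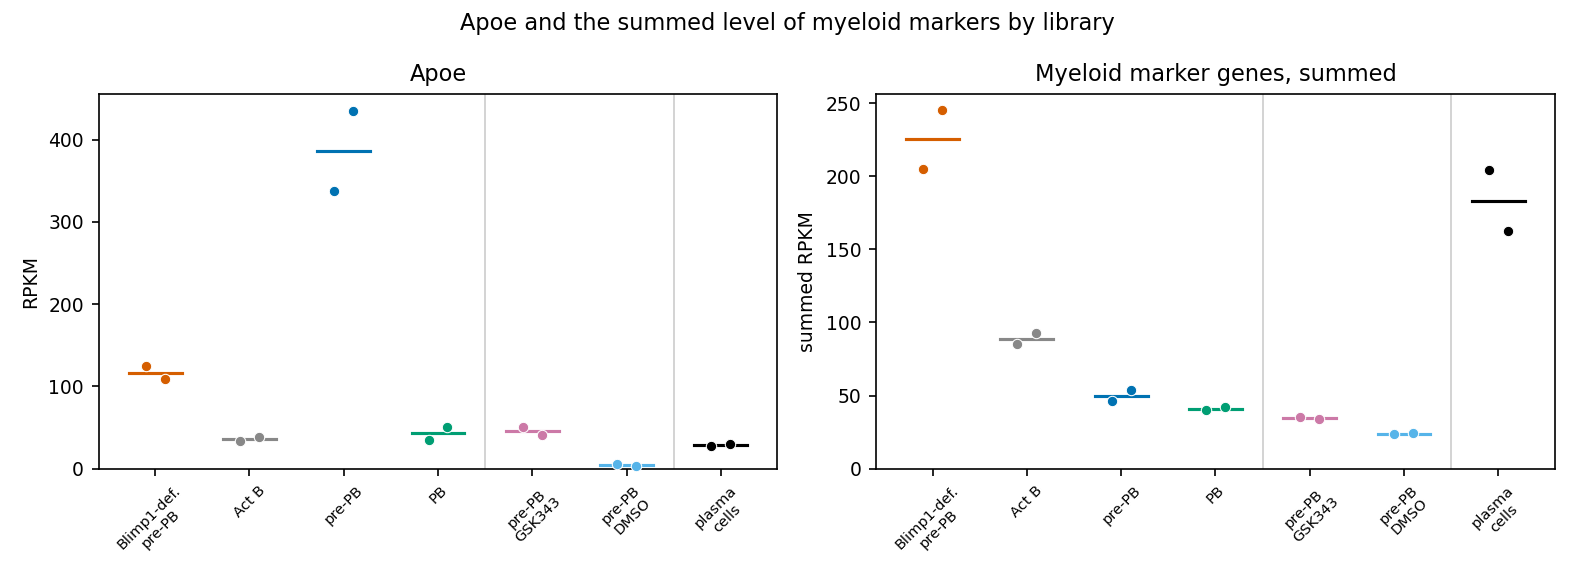
Apoe (left, RPKM) and the sum of the listed myeloid marker genes (right, summed RPKM) by library; points are libraries and bars are means of 2, with 8 marker names read for the first 4 groups and 22 for the other 3. The 2 measures rank the first 4 groups differently: Apoe was highest in pre-plasmablasts (338 and 435 RPKM), whose markers summed to 46.2 and 53.8 RPKM. Csf1r, Lyz2, Cd14, C1qa, C1qb and C1qc are not among the 8 names, and Mpeg1 made up most of the sum in deficient pre-plasmablasts.

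Of 5 other marker lists, T cell markers summed to 310 and 265 RPKM in deficient pre-plasmablasts and 212 and 160 RPKM in activated B cells. They summed to 71.2 to 89.3 RPKM in control pre-plasmablasts and plasmablasts. Cd2 alone made up most of the sum in each of these libraries. Only 5 of the 11 T cell names are listed in the GC-normalized files, and Cd3e, Cd3d, Cd3g, Cd4 and Cd8a are not among them. Natural killer and dendritic cell markers summed to 9.57 to 59.3 RPKM over the GC-normalized libraries and those of erythroid cells and megakaryocytes to 0.665 to 13.5 RPKM. In plasma cells the erythroid and megakaryocyte markers summed to 53.6 and 30.5 RPKM. Plasma cell markers, 7 of 7, rose in pre-plasmablasts against activated B cells and fell in deficient against control pre-plasmablasts. B cell markers counted 1 of 8 higher and 5 lower in the first of these comparisons, and 5 higher and 1 lower in the second. In the first, 20.2% of all genes were called higher and 28% lower, and in the second 24.4% and 16.1%. With GSK343, 3 of 4 T cell markers rose and 1, Cd2, fell, where 12.7% of all genes were called higher and 5.86% lower. The T cell list summed to 55.4 and 48.9 RPKM with GSK343, against 53.1 and 54.7 RPKM with DMSO, and most of each sum was Cd2. Cd3e was at 0 RPKM in every inhibitor library, and Cd3d and Cd3g were at 0.296 RPKM or less. The part of these shifts in the members' values was not tested.

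Partners of the LXR receptors were mostly lower in pre-plasmablasts than in activated B cells. Of 10 genes tested among 17 listed RXR partners, coregulators and oxysterol enzymes, 7 fell and 1 rose in pre-plasmablasts against activated B cells, with a median log2 fold change of -0.62 beside -0.12 for all genes. Over all genes, 28% were called lower and 20.2% higher there. Rxra, the gene of 1 RXR partner of LXR, fell to 0.470 and 0.597 RPKM in pre-plasmablasts, against 2.93 and 3.58 RPKM in activated B cells (-1.47, SE 0.121, adjusted p = 0.000146). Rxrb, the gene of another RXR, stood far above Rxra within pre-plasmablasts, at 52.2 and 62.4 RPKM. Ncoa2, a coactivator gene, rose (0.81, adjusted p = 0.0103). In Blimp1-deficient against control pre-plasmablasts 5 of the 10 rose and 1, Ncoa2, fell, but with scaling only 1 rose and 1 fell, and with the block 8 rose and 1 fell. Rxra rose there to 2.50 and 2.85 RPKM in deficient cells, against 0.470 and 0.597 RPKM in control cells (1.26, SE 0.121, adjusted p = 0.00042). GSK343 changed none of the 9 tested by limma's adjusted p. Over all genes, 24.4% were called higher and 16.1% lower in deficient against control pre-plasmablasts, and 12.7% and 5.86% with GSK343.

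Of 13 textbook LXR target genes tested outside the 6, 6 fell and 1 rose in pre-plasmablasts against activated B cells (median -0.29, all genes -0.12), where 28% of all genes were called lower and 20.2% higher. With scaling 5 fell and 1 rose (median -0.17), and with the block 9 fell and 1 rose. Pltp, which transfers phospholipids between lipoproteins, fell to 0.352 and 1.03 RPKM in pre-plasmablasts, against 16.1 and 15.1 RPKM in activated B cells (-3.33, SE 0.2, adjusted p = 4.94e-05). Mylip, a ubiquitin ligase gene, fell (-1.34, adjusted p = 0.00111), and Smpdl3a, a phosphodiesterase gene, rose (1.22, adjusted p = 0.0115). In deficient against control pre-plasmablasts 6 of 13 rose and none fell (4 and none with scaling, 7 and 2 with the block), led by Mylip (1.28, adjusted p = 0.00185) and Pltp (1.00, adjusted p = 0.00817). GSK343 raised 3 of 12 (Pltp 0.95, Smpdl3a 0.72 and Lpcat1 0.52) and lowered 1, the desaturase gene Scd2 (-0.35, adjusted p = 0.0177). Over all genes, 24.4% were called higher and 16.1% lower in deficient against control pre-plasmablasts, and 12.7% and 5.86% with GSK343.

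Among other apolipoproteins and lipoprotein lipases, 4 of 18 listed genes were tested. Apoa2, which encodes a protein of high-density lipoproteins, was at 20.6 and 13.8 RPKM in pre-plasmablasts, against 3.72 and 2.78 RPKM in activated B cells (log2 fold change 2.08, SE 0.328, adjusted p = 0.00235). Mttp, whose product loads lipid onto apolipoprotein B, also rose (1.14, adjusted p = 0.000366), so 2 of 4 rose and none fell. Over all genes, 20.2% were called higher and 28% lower there. Lipc, hepatic lipase, fell in plasmablasts to 1.42 and 1.64 RPKM, against 7.36 and 6.41 RPKM in pre-plasmablasts (-1.64, SE 0.116, adjusted p = 0.0037). It rose in Blimp1-deficient pre-plasmablasts to 37.1 and 36.1 RPKM, against 7.36 and 6.41 RPKM in control cells (2.26, SE 0.116, adjusted p = 5.75e-05), and with GSK343 (0.51, adjusted p = 0.00852). Apoa2 did not pass the test under GSK343, at 16.3 and 21.1 RPKM against 22.1 and 20.5 RPKM with DMSO (-0.19, adjusted p = 0.321).

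Receptors that take up lipoproteins were split. Of 9 tested in pre-plasmablasts against activated B cells, 4 rose and 3 fell, with a median of -0.08, where 20.2% of all genes were called higher and 28% lower. Lrp8, a receptor for apolipoprotein E, rose to 2.36 and 2.89 RPKM in pre-plasmablasts, against 0.727 and 0.608 RPKM in activated B cells (1.12, SE 0.13, adjusted p = 0.000642). The high-density lipoprotein receptor gene Scarb1 fell by 1.05 on the log2 scale. Blimp1-deficient cells had less Lrp8 than control pre-plasmablasts (-0.74, adjusted p = 0.00508), among 3 of 9 that rose and 2 that fell. With scaling 2 rose and 4 fell, and with the block 5 rose and 4 fell. GSK343 raised 5 of 10, among them Scarb1, Scarb2, Lrp6 and Sort1, and lowered none (1 with scaling). Over all genes, 24.4% were called higher and 16.1% lower in deficient against control pre-plasmablasts, and 12.7% and 5.86% with GSK343.

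Of 10 other ABC lipid transporters tested, 6 fell and 2 rose in pre-plasmablasts against activated B cells (median -0.62), where 28% of all genes were called lower and 20.2% higher. Abca3 fell to 4.52 and 4.85 RPKM in pre-plasmablasts, against 18.6 and 16.8 RPKM in activated B cells (-1.72, SE 0.112, adjusted p = 6.29e-05), and Abcb1b, a drug efflux pump gene, rose (1.03, adjusted p = 0.000192). In deficient against control pre-plasmablasts 6 of 10 rose and 1 fell (4 and 1 with scaling), with Abca3 at 24.9 and 22.2 RPKM against 4.52 and 4.85 RPKM (2.11, SE 0.112, adjusted p = 6.22e-05). GSK343 raised 5 of 9, among them Abcg2 (1.14, adjusted p = 0.00034) and Abca3 (0.95, adjusted p = 0.000359), and lowered none (1 with scaling). Over all genes, 24.4% were called higher and 16.1% lower in deficient against control pre-plasmablasts, and 12.7% and 5.86% with GSK343.

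Genes that move and store cholesterol inside the cell went both ways. Of 18 tested, 6 rose and 4 fell in pre-plasmablasts against activated B cells (median 0.09), where 20.2% of all genes were called higher and 28% lower. Nceh1, which frees cholesterol from its esters, rose to 18.8 and 15.5 RPKM in pre-plasmablasts, against 5.47 and 6.14 RPKM in activated B cells (1.41, SE 0.125, adjusted p = 0.000198). Soat1, which makes those esters, was among the 4 that fell, and it fell again in plasmablasts, to 3.11 and 3.55 RPKM against 5.54 and 5.92 RPKM in pre-plasmablasts (-0.64, SE 0.11, adjusted p = 0.0415; no gene of this list was called there with scaling). In deficient against control pre-plasmablasts 4 of 18 rose and 7 fell, with Nceh1 down (-0.91, adjusted p = 0.00182). GSK343 raised none of 17 and lowered 2, Stard5 and Soat2. Over all genes, 24.4% were called higher and 16.1% lower in deficient against control pre-plasmablasts, and 12.7% and 5.86% with GSK343.

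Fatty acid genes beside Cd36 showed no single direction. Of 20 tested, 6 rose and 5 fell in pre-plasmablasts against activated B cells (median 0.16), where 20.2% of all genes were called higher and 28% lower. The binding protein gene Fabp5 fell to 3.29 and 1.98 RPKM in pre-plasmablasts, against 10.0 and 7.14 RPKM in activated B cells (-1.41, SE 0.297, adjusted p = 0.00819), and Plin2, a coat protein gene of lipid droplets, rose (0.62, adjusted p = 0.0336). In deficient against control pre-plasmablasts 5 of 20 rose and 1 fell, with 5 and 5 under scaling and 7 and 6 with the block. Fabp5 rose with GSK343 to 8.39 and 7.50 RPKM, against 3.78 and 2.42 RPKM with DMSO (1.14, SE 0.162, adjusted p = 0.000676). It was 1 of 4 that rose among 19, and 1 fell. Over all genes, 24.4% were called higher and 16.1% lower in deficient against control pre-plasmablasts, and 12.7% and 5.86% with GSK343.

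The SREBP2 pathway list joined genes that control SREBP2, among them Insig1 and Srebf2, with enzymes of sterol synthesis. Of 14 tested, 6 fell and 2 rose in pre-plasmablasts against activated B cells (median -0.29), where 28% of all genes were called lower and 20.2% higher, and 3 fell and 2 rose with scaling. Insig1, which holds SREBP2 back in the endoplasmic reticulum, rose to 114 and 102 RPKM in pre-plasmablasts, against 55.1 and 55.2 RPKM in activated B cells (0.96, SE 0.094, adjusted p = 0.000308). It fell in deficient cells to 37.5 and 34.2 RPKM, against 114 and 102 RPKM in control pre-plasmablasts (-1.56, SE 0.094, adjusted p = 7.91e-05), among 4 that fell and 1 that rose. Srebf2 itself was at 272 and 273 RPKM in pre-plasmablasts, against 261 and 256 RPKM in activated B cells (0.08, adjusted p = 0.464). GSK343 lowered 2 of 14, Cyp51 and Fdps, and raised none (4 and none with scaling). Over all genes, 16.1% were called lower and 24.4% higher in deficient against control pre-plasmablasts, and 5.86% and 12.7% with GSK343.

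Between plasmablasts and pre-plasmablasts, 3 genes of the 8 lists were called, and each fell: Lipc, Soat1 and Arl4c, a small GTPase gene and LXR target, at 1.66 and 1.85 RPKM in plasmablasts against 4.06 and 3.48 RPKM in pre-plasmablasts (-0.79, SE 0.135, adjusted p = 0.0407). They were 1 of 4 apolipoprotein and lipase genes tested, 1 of 18 genes of cholesterol trafficking and storage and 1 of 13 LXR targets. The other lists, with 9 to 20 genes tested, had none called. With the block the counts were higher in 7 of the 8 lists, at up to 7 of 18, of which 3 rose and 4 fell. Of all genes, 2.34% were called without the block, 0.716% higher and 1.62% lower, and 20.3% with it, 7% higher and 13.3% lower. Plasmablasts against activated B cells, a comparison that shares its activated libraries with the first, gave 1 rising and 8 falling of 13 LXR targets and 2 rising and 7 falling of 10 ABC transporters. Over all genes, 21.3% were called higher and 33.9% lower there. Deficient pre-plasmablasts against activated B cells gave none rising and 3 falling of 10 LXR partners and 1 rising and 4 falling of 13 LXR targets. The shares of all genes there were 10.4% called higher and 7.6% lower.

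The 5 genes whose course over the 8 GC-normalized libraries was most like that of Apoe were 4930539E08Rik, Cyba, Smoc1, Arl5c and Timp2, with Pearson r between 0.967 and 0.977, a description over libraries that share 4 groups. Cyba, a subunit gene of the NADPH oxidase of phagocytes and B cells, was at 1508 and 1538 RPKM in pre-plasmablasts, 1388 and 1229 RPKM in deficient pre-plasmablasts and at most 1126 RPKM in the other 4 libraries. Those most like Cd36 were Xrcc5, Rtn4ip1, Srxn1, Sulf2 and Bax (r 0.976 to 0.992), and those most like Abca1 were Eomes, Hspb6, Stk11, Zfp687 and Amz2 (r 0.976 to 0.993). Eomes, a transcription factor gene of T cells, was at 7.57 and 11.8 RPKM in plasmablasts, 1.75 and 4.12 RPKM in pre-plasmablasts and at most 0.374 RPKM in the other 4 libraries. Cuta, Ets2, Trib3, Fen1 and Uchl1 were most like Abcg1 (r 0.987 to 0.995), and Osbpl5, C87436, Calcoco1, Sipa1l2 and Mboat7 most like Nr1h2 (r 0.853 to 0.947). Among the members, r was 0.78 for Apoe with Cd36, 0.77 for Abca1 with Abcg1, -0.83 for Apoe with Nr1h2 and -0.07 for Apoe with Abca1. The libraries that chose Apoe are among the 8, so each r that involves Apoe is a description only.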

How the data were processed

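The authors deposited RPKM values for every RNA library; those of the 8 libraries of the first experiment are GC-normalized, per the file names, and cover fewer genes. Per the labels' protocols, polyadenylated RNA was made into strand-specific libraries and read at 50 nucleotides. The submitters' processing notes name build mm9, SICER, DESeq 1.8.3, HTSeq 0.5.3 and TopHat 1.4.1. The sources used here do not give the annotation or whether counting used strand, so overlapping genes and paralogs are less certain. Names held by several entries were left out (61 in the GC-normalized, 166 in the inhibitor and 188 in the plasma cell files). RPKM are not counts, so limma 3.58.1, run in R 4.3.3, was applied to log2(RPKM + 1) (lmFit, eBayes with trend, two-sided, Benjamini-Hochberg adjustment): 1 fit of 4 groups for the 8 GC-normalized libraries and 1 of its own for the inhibitor libraries. Genes at 1 RPKM or more in 2 libraries were tested. That scale understates changes of low genes. Plasma cells were not tested, and in their files 5 summary names were dropped, which raised the correlation with the first DMSO library to 0.901, against 0.325 as deposited. The members and lists were chosen with earlier results of these data known. Named list genes are up to 4 called with the largest change and up to 2 not called with the highest level; some are left out, and Soat1 at the first step and the markers Fcer1g, Mpeg1, S100a9, Vsig4, C1qb and C1qc were named after their values were seen. Library numbers in the titles give 2 series, which deviated together in all 6 pairs of groups (r 0.666 to 0.781), so a block for the series was an alternative fit. The labels do not say whether a group's 2 libraries are separate mice or cultures, and the p-values then reflect the spread of these samples alone, possibly a technical one. Motifs were counted and plots drawn with Python 3.11.15, pandas 2.3.3 and matplotlib 3.10.9, and the fits were tested on simulated data.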

Additional observations from a re-analysis of the deposited data

How the results depend on the processing

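With 2 libraries a group, the spread rests on few samples and single calls on 1 library. Over 379 member values under alternatives (a pseudocount of 0.1, no filter, median-of-ratios scaling, no trend, the block, fits of 2 groups, each library left out), 318 kept direction and call, 42 lost and 9 gained the call, 2 (Apoe in plasmablasts against pre-plasmablasts without either plasmablast library) moved beyond their spread, and 8, none of them called, turned sign. With 1 library left out, Abcg1 in plasmablasts against pre-plasmablasts ran from -0.206 to 0.013 and Apoe against activated B cells from -0.055 to 0.491. In deficient pre-plasmablasts against activated B cells Abca1 ran from -0.14 to 0.023 and Nr1h2 from -0.037 to 0.051 (-0.004 with scaling), and under GSK343 Abcg1 ran from -0.105 to 0.242. The replicate block for the library series raised the genes called to 2128 between plasmablasts and pre-plasmablasts (245 without it), 6829 in deficient against control pre-plasmablasts (4234) and 4477 against activated B cells (1885); besides the members given with it in the report, it changed no other member's call. Fits of the 2 groups alone called 1 gene in the first and 1200 in the last of these, and leaving out 1 library 23 to 149 and 719 to 1611. Under GSK343, 0 genes were called with no filter (3629 at an unadjusted p below 0.05) and 747 to 1955 with 1 library left out, of 1763. Scaling moved the median of all genes from -0.18 to -0.01 between plasmablasts and activated B cells, and the share of calls that were higher from 41.9% to 51.5%, 30.6% to 42.4%, 38.6% to 51.4%, 60.3% to 47.5% and 68.5% to 55.1% in pre-plasmablasts against activated B cells, plasmablasts against pre-plasmablasts and activated B cells, deficient against control pre-plasmablasts and GSK343 against DMSO.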

Other observations

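Lag3, which encodes an inhibitory receptor, had the second highest positive gap, pre-plasmablasts of the first experiment minus the DMSO libraries, after Apoe, at 5.95 on the log2 scale. It was at 77.5 and 124 RPKM in the pre-plasmablasts of the first experiment, against 0.573 and 0.631 RPKM with DMSO, and at 2.54 and 1.29 RPKM with GSK343. Ccl5, a chemokine gene, was at 71.3 and 52.4 RPKM in the pre-plasmablasts of the first experiment, against 2.88 and 2.54 RPKM with DMSO, and at 9.71 and 6.57 RPKM with GSK343. Both genes were chosen after their values were seen, and no test was run across these separately normalized files.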
